A study of Mus musculus with 34 samples.

Results

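Cholesterol handling in mouse cumulus cells (CCs) was examined through a named list of 32 genes, each found once by its symbol among the 25965 entries of the count table. The list holds 18 enzymes of cholesterol synthesis, 5 sterol sensors, 4 genes of lysosomal release and intracellular carriage, 4 genes of cholesterol efflux and its receptors, and the esterifying enzyme Soat1. The list was matched by name alone. All 32 genes had reads in at least 29 of the 34 libraries, and 29 genes had reads in every library.

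The study asked how obesity and high leptin change the ovary, and sequenced the RNA of CCs, the somatic cells that surround the oocyte. Female C57BL/6J mice entered the protocols at 8 weeks of age, carried no transgene and were superovulated before collection. In diet-induced obesity they ate chow diet (CD, with 11% of energy from fat per the labels) or high-fat diet (HFD, with 58%) for 4 or 16 weeks, which gave 4-week CD (n = 5), 4-week HFD (n = 5), 16-week CD (n = 6) and 16-week HFD (n = 7). A further group (n = 3) ate HFD for 16 weeks and gained little weight (low weight gainers). In the hyperleptinemic model, mice received intraperitoneal leptin at a total of 100 µg per day (16 L, n = 5) or saline (16 C, n = 3) for 16 days, divided between a morning and an evening injection. Each library came from about 50 CCs of 1 mouse, taken from 1 cumulus-oocyte complex per the labels, so the spread between libraries includes that between mice. The criterion for low weight gain and the diet of the injected mice are not given in the sources used here.

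As background, cholesterol is built from acetyl-CoA through mevalonate, isoprenoid diphosphates, squalene and lanosterol. The membrane proteins Scap and Insig hold the SREBP transcription factors, encoded by Srebf1 and Srebf2, in the endoplasmic reticulum when sterols are plentiful and release them when sterols fall, and oxysterols instead engage the liver X receptors, which drive the efflux pumps. In the ovary, cholesterol also feeds steroid hormone synthesis, and mouse oocytes are known to rely on CCs for part of their cholesterol.

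Total counts ranged from 1104611 to 13207018 per library. Some libraries stood apart from their group. Across genes, 16-week CD replicates 1 and 2 had a median correlation of 0.935 and 0.940 with the 4-week libraries but 0.849 and 0.862 with the other 16-week diet libraries. The 16 C libraries resembled the 16-week libraries (0.933 to 0.942, against 0.837 to 0.842 with the 4-week libraries). Of the 16 L libraries, 4 were nearer the 4-week libraries (0.842 to 0.932, against 0.771 to 0.870 with the 16-week libraries). What sets these libraries apart is not given in the sources used here, and in 16 L against 16 C it cannot be told apart from the treatment. The remaining 16 L library, replicate 18, resembled neither (0.606 and 0.719). Its oviduct epithelium markers summed to 36052 CPM (counts scaled to a common library total), against 199 to 227 CPM in 16 C, its stromal markers to 1636 CPM, and its cumulus expansion markers to 2.22 CPM, although its cumulus and granulosa markers reached 964 CPM. Oviduct epithelium markers were also above 16 C in 16 L replicates 20, 21 and 23, at 1426, 1835 and 666 CPM. Ovgp1 in these libraries was at 1083, 1671 and 285 CPM, against 25.7 to 102 CPM in 16 C. Only 16 L replicate 19 was lower in sum, at 129 CPM. Fits without replicate 18 keep replicates 20, 21 and 23, and the part of this signal in them was not tested. Red blood cell markers also summed to 5950 CPM in replicate 18 and 1126 CPM in replicate 21 of 16 L, against 1.16 to 16.4 CPM in 16 C. In 4-week HFD, replicate 5 had 380 CPM of oocyte markers, against 0.556 to 2.96 CPM in the rest of its group. Values from fits without 16 L replicate 18, or without 16-week CD replicates 1 and 2, are set beside the gene results that use them.

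Per kilobase of exon, the list spanned a wide range of levels. Soat1, which esterifies cholesterol for storage, was the highest at a median of 249 CPM per kilobase over the 34 libraries. It was followed by the farnesyl diphosphate synthase Fdps at 145, the lysosomal sterol carrier Npc2 at 103 and the HMG-CoA synthase Hmgcs1 at 65.1 CPM per kilobase. The liver X receptor gene Nr1h3 was the lowest at 0.873, below its paralogue Nr1h2 at 10.0 CPM per kilobase. The efflux pump gene Abca1 stood at 12.4 CPM per kilobase. Its relative Abcg1 had a lower median of 2.75 but the wider range, from 0 to 80.5 CPM per kilobase. Of the exon bases of Fdps, 26.7% also belong to another annotated gene, and the share was 18.3% for Fdft1, 13.2% for Scap, 12.1% for both Hmgcs1 and Tm7sf2 and 10.7% for Lbr. Reads in those bases cannot be told apart here.

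**Figure D1:**
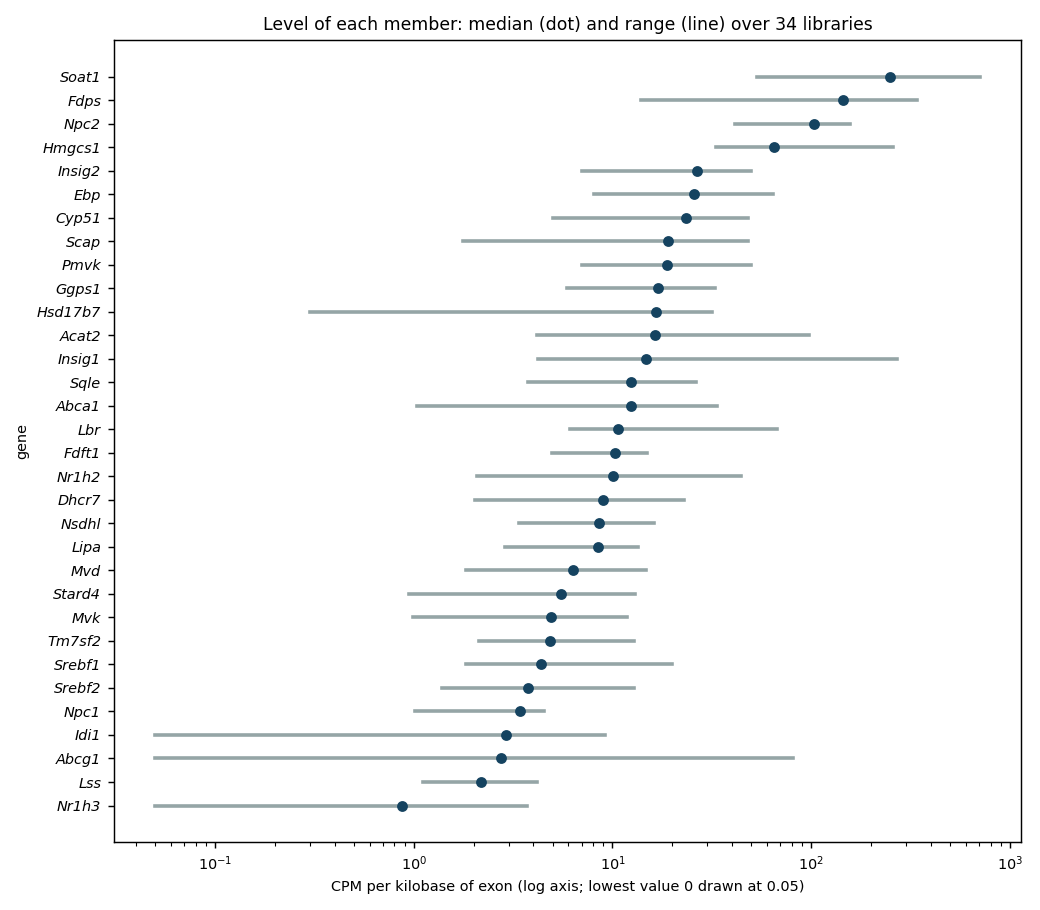
Level of each of the 32 genes in CPM per kilobase of exon on a log axis, ordered by median. Dots are medians and lines run from the lowest to the highest of 34 libraries, with Soat1 at a median of 249 and Nr1h3 at 0.873.

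Differences between groups were tested with edgeR's quasi-likelihood test, and adjusted p-values were taken over all genes tested. A gene is called changed where its adjusted p was below 0.05. In 16 L, 3 of 32 genes were lower than in 16 C and none was higher, and 8.56% of all genes tested were called (4.06% higher and 4.5% lower). The 3 genes were Fdps, Lbr and Soat1. At an unadjusted p below 0.05 the count was 13 (40.6%), with 3 higher and 10 lower, where 32.4% of all genes were. Without 16 L replicate 18, 18 of 32 genes (56.2%) were called, 6 higher and 12 lower, and the share over all genes was 41.8% (20.2% higher and 21.7% lower). Leaving out another library gave 2 called genes, where 0.235% to 1.28% of all genes were called, except that 6 were called without 16 L replicate 19, where 14.4% of all genes were. Scaling by total counts in place of TMM shifted the median over all genes up by 0.81 and gave 5 higher and 4 lower genes, and without replicate 18 it raised the median by 0.99 and gave 15 higher and 6 lower. Of the called genes, Npc2 alone changed direction under it, in the fit without replicate 18.

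In low weight gainers, 8 of 31 genes tested (25.8%) differed from 16-week HFD, where 20.7% of all genes did. The mitochondrial share of counts moved with this comparison, from 0.337% to 0.614% in low weight gainers and from 0.786% to 1.53% in 16-week HFD, and its part in the result was not tested. Of the 8 called genes, 5 were higher (10.8% of all genes) and 3 were lower (9.93% of all genes). The higher genes were Nr1h2, Mvk, Mvd, Hmgcs1 and Srebf1, and the lower genes were Abca1, Stard4 and Ggps1. Leaving out low weight gainer replicate 21, 22 or 23 left 3, 4 or 3 called genes, where 9.94%, 12.6% or 5.19% of all genes were called. Abca1, Nr1h2 and Mvk kept their calls whichever library was left out. Scaling by total counts raised the median of all genes by 0.17 and gave 7 higher and 1 lower, and no called gene changed direction.

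The diet comparisons gave no called gene from the list. In 4-week HFD against 4-week CD, 0 of 32 genes were called, and 4.26% of all genes were. At an unadjusted p below 0.05 there were 6 (18.8%, all genes 24.3%), and DESeq2 called Idi1 and Lipa (all genes 9.69%). Without 4-week CD replicate 11, 6 genes were called, all higher, and 14.4% of all genes were. In 16-week HFD against 16-week CD, 0 of 31 genes were called, and 0.0276% of all genes were. There 11 (35.5%) had an unadjusted p below 0.05 (all genes 25.3%), and DESeq2 called Lbr, Srebf1 and Ggps1 (all genes 9.05%). Without 16-week CD replicate 9, 8 genes were called, where 20.5% of all genes were, and without replicate 13, 2 were, where 4.29% of all genes were. Without 16-week CD replicates 1 and 2, 0 genes were called and 1, Ggps1, had an unadjusted p below 0.05 (3.23%, all genes 9.64%), and 0.00909% of all genes were called. Between low weight gainers and 16-week CD, 0 of 32 genes were called, where 0.00861% of all genes were. Of these, 6 (18.8%) had an unadjusted p below 0.05 (all genes 11.2%), and DESeq2 called Hmgcs1 and Abca1 (all genes 1.83%). Without 16-week CD replicates 1 and 2, edgeR called 0 of 31 (0.0271% of all genes), and 10 (32.3%) had an unadjusted p below 0.05 (all genes 16.1%). The change in the diet effect from 4 to 16 weeks was called in 0 of 32 genes, and in 3.66% of all genes. An unadjusted p below 0.05 was found for 4 (12.5%, all genes 23.4%), and DESeq2 called Srebf1 and Nr1h2 (all genes 9.12%). The low weight gainer, 16-week diet and diet-by-time comparisons share libraries, so their values are not independent of each other.

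**Figure D2:**
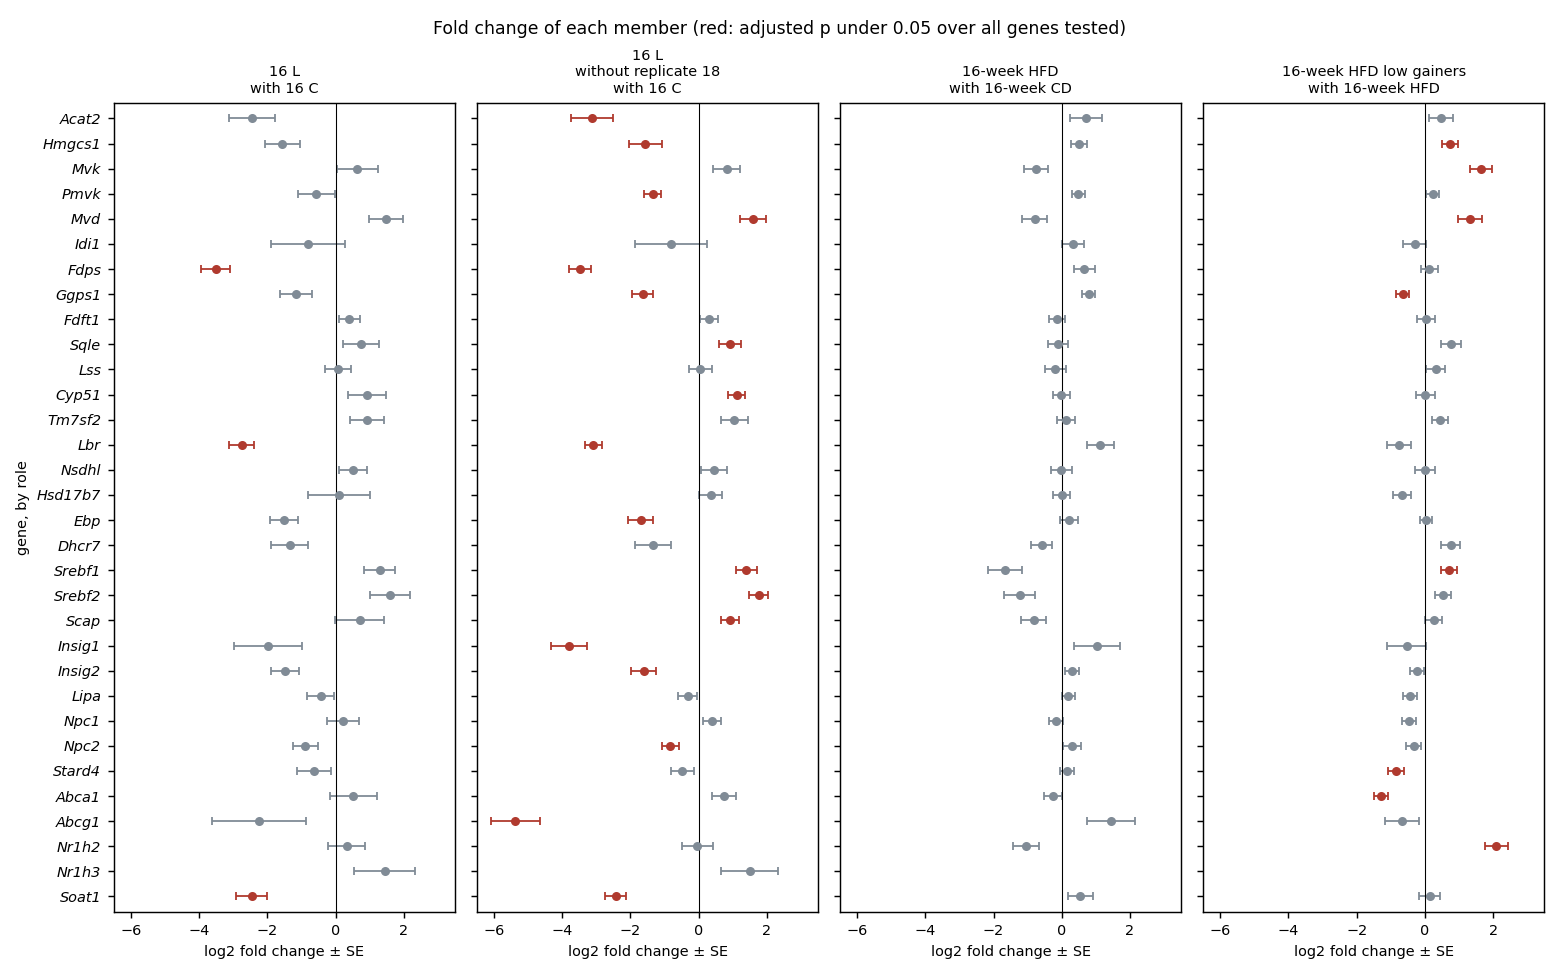
Log2 fold change ± SE of each gene, ordered by role from synthesis enzymes at the top to Soat1 at the bottom, in 4 comparisons. Red marks an adjusted p below 0.05 over all genes tested. The 3 red genes of 16 L with 16 C are joined by others without replicate 18, to 18 in all, while 16-week HFD with 16-week CD has none.

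The first synthesis steps lead from acetyl-CoA to mevalonate and on to isopentenyl diphosphate. The promoters of 3 of their genes, each called higher in low weight gainers than in 16-week HFD, are shown, from RefSeq on GRCm38.p6, as 250 bases before to 50 bases after the annotated start. Hmgcs1 lies at chr13:119690101-119690400 on the plus strand, Mvk at chr5:114444019-114444318 on the plus strand, and Mvd at chr8:122443373-122443672 on the minus strand. Capitals mark the SREBP element TCACNCCAC and the NF-Y box CCAAT on either strand, and the 2 motifs were searched separately, so a base could count in both.
Hmgcs1: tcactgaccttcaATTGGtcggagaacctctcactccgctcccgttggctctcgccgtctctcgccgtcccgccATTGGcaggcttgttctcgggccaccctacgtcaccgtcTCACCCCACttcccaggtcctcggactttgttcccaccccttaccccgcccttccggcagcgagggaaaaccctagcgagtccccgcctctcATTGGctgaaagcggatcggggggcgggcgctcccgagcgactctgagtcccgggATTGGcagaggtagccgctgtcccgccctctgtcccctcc
Mvk: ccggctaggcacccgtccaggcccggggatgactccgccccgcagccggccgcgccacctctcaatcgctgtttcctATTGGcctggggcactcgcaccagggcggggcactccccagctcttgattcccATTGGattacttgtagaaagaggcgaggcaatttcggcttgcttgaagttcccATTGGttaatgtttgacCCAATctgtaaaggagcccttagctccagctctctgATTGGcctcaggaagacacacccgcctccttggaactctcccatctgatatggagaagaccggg
Mvd: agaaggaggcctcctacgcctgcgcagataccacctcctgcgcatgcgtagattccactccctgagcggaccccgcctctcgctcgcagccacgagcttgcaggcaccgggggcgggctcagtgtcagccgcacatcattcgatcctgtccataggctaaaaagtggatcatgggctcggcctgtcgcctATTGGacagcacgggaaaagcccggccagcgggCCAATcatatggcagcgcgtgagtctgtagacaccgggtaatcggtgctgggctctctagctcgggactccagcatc
The SREBP element was found in the Hmgcs1 promoter, starting 137 bases before the annotated start, and in none of the other promoters searched. Fdps, Fdft1, Sqle, Stard4, Npc1 and Abcg1 had no promoter in this set and were not searched. Only exact matches within these bases were sought, so SREBP sites of other spelling or position would be missed. The element occurred in 1.24% of 32851 mouse promoters of the same length. CCAAT occurred 4 times in the Hmgcs1 promoter, 5 times in Mvk and 2 times in Mvd. Of the 26 genes of the list with a promoter in this set, 21 had CCAAT and 22 had the Sp1 box GGGCGG in at least 1 promoter. By promoter, the shares were 62.9% of 35 for CCAAT and 74.3% for GGGCGG, against 37.4% and 35.7% of all promoters. The liver X receptor motif DR4, a direct repeat, was in none of the 35 promoters and in 0.0152% of all promoters.

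Hmgcs1, which condenses acetyl-CoA units into HMG-CoA, was at 708, 849 and 549 CPM in low weight gainers. In 16-week HFD it ranged from 297 to 547 CPM with a median of 389.9. The groups did not overlap. On the log2 scale the change was 0.74 (SE 0.237, adjusted p = 0.0364), a 1.67-fold rise. The call was lost without any 1 of the 3 low weight gainers, without 16-week HFD replicate 11 or 14 (adjusted p of up to 0.166 when a library was left out) and in the fit of all 34 libraries. Against 16-week CD, which ranged from 222 to 413 CPM, the log2 difference was 1.27 (SE 0.303, adjusted p = 0.257), and 1.15 (adjusted p = 0.138) without 16-week CD replicates 1 and 2. In 16 C, Hmgcs1 was at 328, 1188 and 379 CPM, and in 16 L at 152, 233, 176, 345 and 179 CPM. Replicate 2 of 16 C stood far above the other libraries, and 1 library of 16 L lay within the range of 16 C. This was a log2 fold change of -1.56 (SE 0.509, adjusted p = 0.0777), and without 16 L replicate 18 it was -1.57 (adjusted p = 0.0276). Without 16 C replicate 2 it was -0.69 (adjusted p = 0.325). The 4-week groups overlapped, at 152 to 319 CPM in CD and 242 to 301 CPM in HFD.

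Mvk, the mevalonate kinase, was at 31.8, 24.5 and 26.3 CPM in low weight gainers. In 16-week HFD it ranged from 2.66 to 13.98 CPM with a median of 8.83, below every low weight gainer. The fitted log2 fold change was 1.63 (SE 0.325, adjusted p = 0.00333), and the call stood in each of the 15 other fits tried, with an adjusted p between 0.00155 and 0.0266 when a library was left out. In 16-week CD, Mvk ranged from 7.16 to 23.1 CPM with a median of 15.7, also below every low weight gainer, and the log2 difference was 0.89 (SE 0.356, adjusted p = 0.394), and 0.99 (adjusted p = 0.235) without 16-week CD replicates 1 and 2.

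Mvd, the decarboxylase that yields isopentenyl diphosphate, was at 19.9, 11.5 and 18.2 CPM in low weight gainers. In 16-week HFD it ranged from 3.41 to 12.1 CPM with a median of 5.63. Low weight gainer replicate 22 lay within the range of 16-week HFD and the other two above it. edgeR gave a log2 fold change of 1.32 (SE 0.359, adjusted p = 0.0168), and the call was lost without low weight gainer replicate 21 or 23, at an adjusted p of up to 0.093. In 16 C, Mvd was at 6.06, 4.73 and 5.01 CPM, below all of 16 L at 6.83, 12.9, 13.5, 20.7 and 20.2 CPM. There the log2 fold change was 1.48 (SE 0.496, adjusted p = 0.0823), and 1.59 (adjusted p = 0.0087) without replicate 18. The intermediate kinase gene Pmvk did not pass the test in any comparison with all libraries.

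Idi1, which isomerises isopentenyl diphosphate, was at 8.95, 3.39, 0, 4.37 and 0.392 CPM in 4-week CD. In 4-week HFD it was at 17.6, 21.7, 10.2, 5.68 and 7.31 CPM. The count of 0 in 4-week CD replicate 2 allows a level of up to 1.79 CPM, at 3 counts. The groups overlapped at their margin, and the log2 fold change of 1.74 (SE 0.589, adjusted p = 0.095) was the largest of the list in this comparison without passing the test. Without 4-week CD replicate 11 it was 2.36 (adjusted p = 0.0213). The change in its diet effect between 4 and 16 weeks was -1.32 (SE 0.664, adjusted p = 0.226), and -1.49 (adjusted p = 0.238) without 16-week CD replicates 1 and 2.

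Fdps, which makes farnesyl diphosphate, the branch point toward sterols and protein prenylation, lies at chr3:89093592-89101967 on the minus strand of GRCm38. In 16 C it was at 1229, 969 and 1076 CPM. In 16 L it was at 60.6, 136, 58.8, 126 and 96.1 CPM, so that every 16 L library lay below every 16 C library. The log2 fold change was -3.52 (SE 0.416, adjusted p = 0.00758), an 11.5-fold fall. It was -3.47 (adjusted p = 8.71e-05) without replicate 18, and the call stood whichever library was left out, at an adjusted p of up to 0.0442. In the diet groups Fdps was at 479, 197, 214, 125 and 80.0 CPM in 4-week CD and at 291, 188, 557, 483 and 533 CPM in 4-week HFD. In 16-week CD it ranged from 355 to 1090.0 CPM with a median of 813, its 2 lowest libraries being replicates 1 and 2, and in 16-week HFD from 663 to 1435 CPM with a median of 1200.5. Neither diet difference passed the test with all libraries (log2 0.89, adjusted p = 0.196 at 4 weeks, and log2 0.66, adjusted p = 0.194 at 16 weeks, or 0.36, adjusted p = 0.647, without 16-week CD replicates 1 and 2). Without 4-week CD replicate 11, Fdps was called at 4 weeks, where 14.4% of all genes were. Low weight gainers were at 1418, 1215 and 1214 CPM, within the range of 16-week HFD.

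Ggps1, which extends farnesyl diphosphate for protein prenylation, ranged from 108 to 155 CPM in 16-week HFD with a median of 120.2. The 3 low weight gainers were at 84.4, 90.3 and 73.6 CPM, all below that range. On the log2 scale the change was -0.66 (SE 0.2, adjusted p = 0.0282). The call was lost without any 1 of the low weight gainers, at an adjusted p of up to 0.157, and in scaling by total counts, without a filter and in the fit of all 34 libraries. In 16-week CD it ranged from 50.3 to 95.4 CPM, below every 16-week HFD library. The log2 fold change for diet was 0.79 (SE 0.195, adjusted p = 0.0654) and 0.63 (adjusted p = 0.361) without 16-week CD replicates 1 and 2.

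The later enzymes close the sterol ring and reduce it. Lbr, a sterol C14 reductase that also anchors lamin at the inner nuclear membrane, lies at chr1:181815316-181842401 on the minus strand. In 16 C it was at 276, 322 and 239.8 CPM. In 16 L it was at 65.4, 38.3, 29.2, 31.7 and 41.2 CPM, with no overlap. This was a log2 fold change of -2.76 (SE 0.359, adjusted p = 0.00829), a 6.76-fold fall, and -3.08 (adjusted p = 6.42e-05) without replicate 18. The call stood whichever library was left out, at an adjusted p of up to 0.0472. The 4-week libraries were narrow, at 29.6 to 37.0 CPM in CD and 36.5 to 47.4 CPM in HFD. The 16-week libraries spread widely, from 32.7 to 153 CPM with a median of 48.3 in CD and from 89.7 to 266 CPM with a median of 129 in HFD (log2 fold change 1.13, adjusted p = 0.0977, and 0.82, adjusted p = 0.557, without 16-week CD replicates 1 and 2). Lbr in low weight gainers was at 95.1, 142 and 54.1 CPM. The other sterol C14 reductase gene, Tm7sf2, was called in 16 L with total counts, and otherwise in no comparison with all libraries.

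Sqle, which oxidises squalene in a rate-limiting step, was at 54.5, 24.6 and 55.5 CPM in 16 C and at 20.8, 84.3, 83.2, 112 and 74.9 CPM in 16 L. Only replicate 18 of 16 L lay below the highest 16 C library. The fitted log2 fold change was 0.74 (SE 0.522, adjusted p = 0.343), and 0.93 (adjusted p = 0.0406) without replicate 18. In low weight gainers Sqle was at 96.6, 115 and 146 CPM and in 16-week HFD between 36.0 and 121 CPM with a median of 53.8 (log2 fold change 0.75, adjusted p = 0.0743). Sqle was called there with total counts and without 16-week HFD replicate 14. At 4 weeks it was at 66.2, 107, 116, 77.1 and 54.1 CPM in CD and at 55.9, 97.1, 36.2, 40.4 and 42.4 CPM in HFD (log2 fold change -0.63, adjusted p = 0.219). In 16-week CD it ranged from 42.4 to 130.4 CPM, which overlapped both other 16-week groups (log2 difference -0.10 for HFD, adjusted p = 0.845, and 0.66 for low weight gainers, adjusted p = 0.496). Without 16-week CD replicates 1 and 2 these were -0.20 (adjusted p = 0.840) and 0.53 (adjusted p = 0.444). Of the remaining late enzymes, Lss, Nsdhl and Hsd17b7 were called in no comparison with all libraries, Fdft1 was called in 16 L with total counts, and Dhcr7 in 16 L in the fit of all 34 libraries and in low weight gainers with total counts. In 16 L, the isomerase gene Ebp had an adjusted p of 0.0505, and was called with RLE, by DESeq2 and in the fit of all 34 libraries. Without replicate 18, Cyp51, the lanosterol demethylase, and Ebp were called at a log2 fold change of 1.11 (adjusted p = 0.00729) and -1.7 (adjusted p = 0.00553). The same fit called the cytosolic thiolase Acat2, of the first step, at -3.12 (adjusted p = 0.00325) and Pmvk at -1.35 (adjusted p = 0.00249). These 4 genes, and Scap, Insig2 and Npc2 below, are named after their values were seen.

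**Figure D3:**
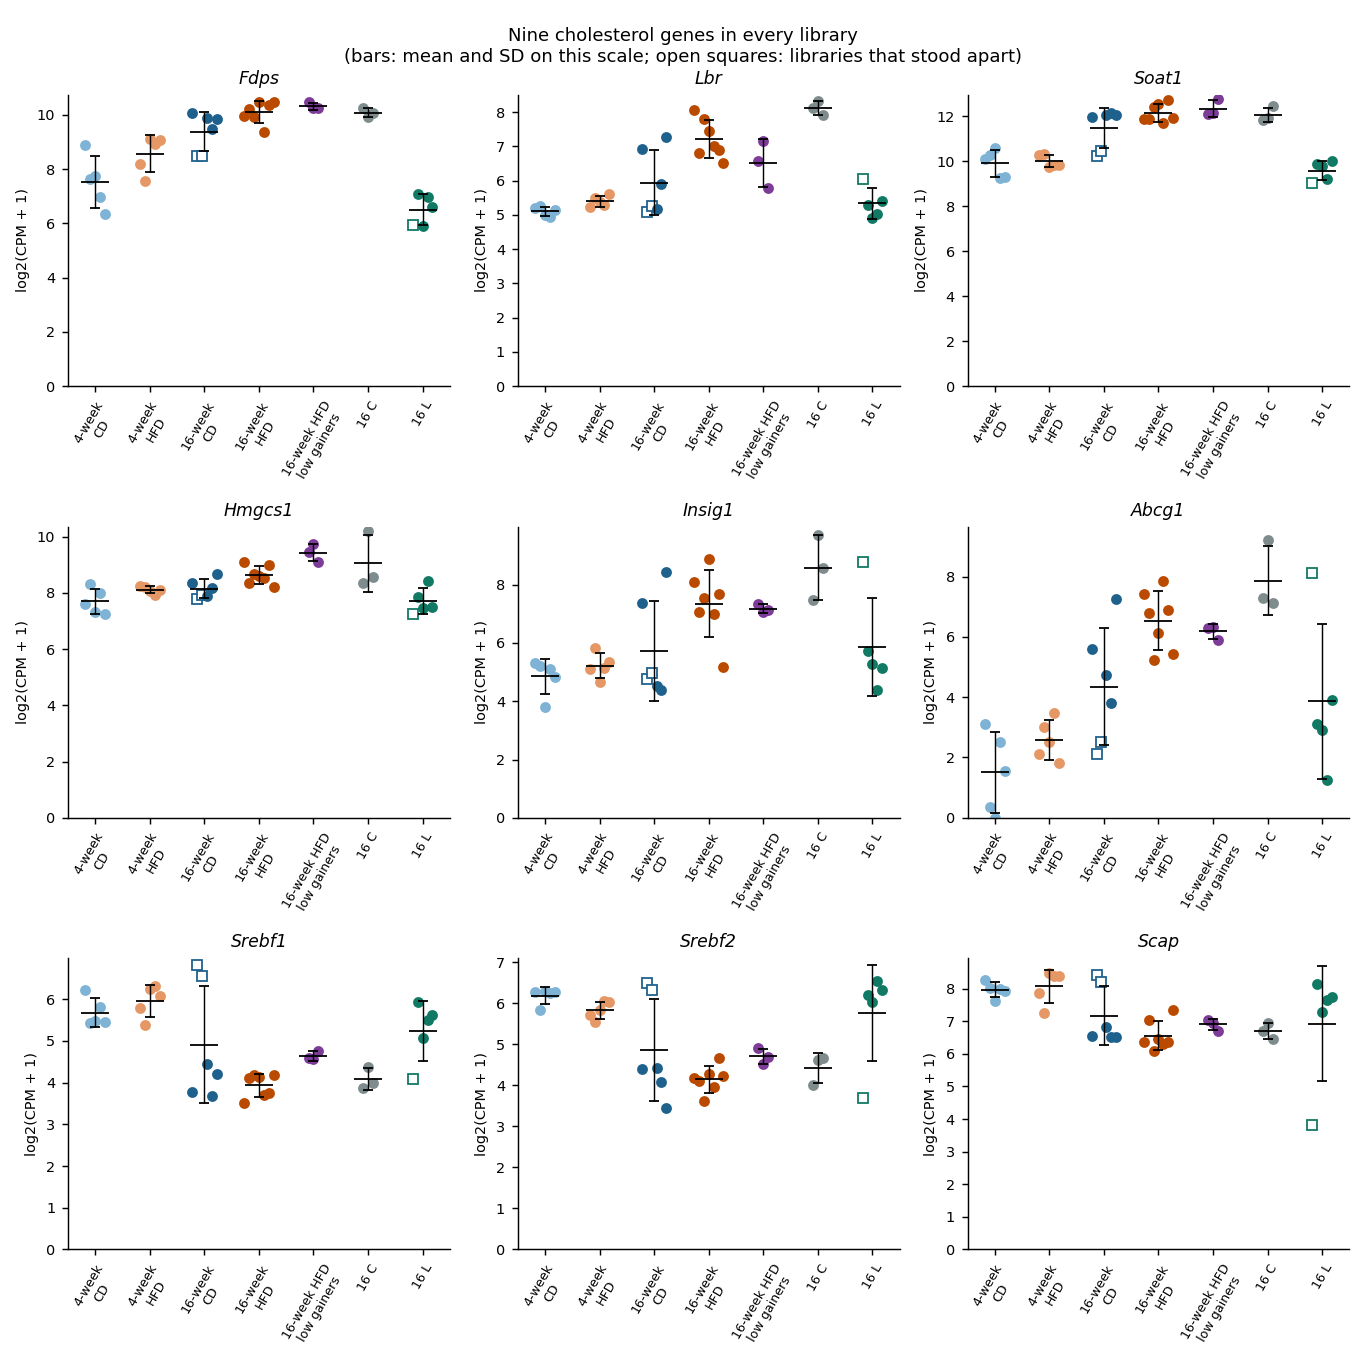
Level of 9 genes as log2(CPM + 1) in each library of the 7 groups, with the mean and SD on that scale. Open squares are 16 L replicate 18 and 16-week CD replicates 1 and 2. Fdps, Lbr and Soat1 in 16 L lie below every 16 C library, and the 2 squares of 16-week CD lie near the 4-week libraries.

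By edgeR with TMM on the libraries of 16 C and 16 L, none of the 5 sterol sensors was called. Other fits of all libraries called Insig2 (RLE, DESeq2 and the 34 libraries together), Srebf2 (total counts and the 34 libraries together) and Srebf1 (total counts). In low weight gainers, Srebf1 alone was called. Srebf2, whose protein drives the synthesis enzymes, was at 15.1, 23.4 and 24.3 CPM in 16 C. In 16 L it was at 12.0 CPM in replicate 18 and at 72.1, 64.9, 92.3 and 78.6 CPM in the other libraries, which all lay above 16 C. edgeR gave a log2 fold change of 1.58 (SE 0.584, adjusted p = 0.103) with replicate 18 and 1.76 (SE 0.282, adjusted p = 0.00122) without it. The 4-week groups were also high, at 76.4, 56.0, 78.0, 74.9 and 76.5 CPM in CD and 51.1, 45.3, 55.7, 65.1 and 63.9 CPM in HFD (log2 fold change -0.39, adjusted p = 0.244). In 16-week CD Srebf2 ranged from 9.92 to 89.5 CPM with a median of 20.2, and replicates 1 and 2 were its 2 highest libraries. In 16-week HFD it ranged from 11.2 to 24.3 CPM. The diet difference of -1.23 on the log2 scale (adjusted p = 0.113) became 0.11 (adjusted p = 0.899) without those replicates. Low weight gainers were at 28.8, 22.1 and 25.0 CPM (log2 fold change 0.53 against 16-week HFD, adjusted p = 0.121).

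Srebf1, whose protein drives fatty acid as well as sterol genes, showed the same layout of libraries. In low weight gainers it was at 22.9, 22.7 and 26.3 CPM and in 16-week HFD between 10.3 and 17.1 CPM with a median of 16.2, with no overlap. The log2 fold change was 0.7 (SE 0.235, adjusted p = 0.043). The call stood in 3 of the 10 fits that left out a library, at an adjusted p of up to 0.181, and was lost without any 1 of the low weight gainers, without 16-week HFD replicate 10, 14, 15 or 16, without a filter and in the fit of all 34 libraries. In 16-week CD Srebf1 was at 112 and 93.6 CPM in replicates 1 and 2 and between 11.7 and 20.6 CPM in the other libraries. The diet difference was -1.68 (SE 0.503, adjusted p = 0.0724) and the change in the diet effect between 4 and 16 weeks was -1.81 (SE 0.581, adjusted p = 0.0673), which were the largest of the list. Without 16-week CD replicates 1 and 2 they were -0.086 (adjusted p = 0.914) and -0.41 (adjusted p = 0.553). In 16 C it was at 13.6, 19.9 and 15.0 CPM, and in 16 L at 15.9, 59.8, 32.7, 44.1 and 48.6 CPM, where replicate 18 alone fell within 16 C (log2 fold change 1.29, adjusted p = 0.094, and 1.39, adjusted p = 0.00591, without it). Scap, which escorts the SREBP proteins, was not called in this comparison with all libraries, but was without replicate 18 (log2 fold change 0.92, adjusted p = 0.0242).

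Insig1, a sterol-dependent retention protein and itself an SREBP target, was at 178, 832 and 379.7 CPM in 16 C. In 16 L it was at 433 CPM in replicate 18 and at 51.7, 37.5, 20.0 and 34.4 CPM in the other libraries. On the log2 scale the change was -1.99 (SE 0.997, adjusted p = 0.194), and -3.8 (SE 0.531, adjusted p = 0.000568) without replicate 18. It was -1.23 (adjusted p = 0.502) without 16 C replicate 2. At 4 weeks all 10 libraries lay between 13.1 and 55.8 CPM (log2 fold change 0.32, adjusted p = 0.509). In 16-week CD it ranged from 19.9 to 341 CPM with a median of 28.2 and in 16-week HFD from 35.3 to 469 CPM with a median of 185 (log2 fold change 1.02, adjusted p = 0.333, and 0.59, adjusted p = 0.828, without 16-week CD replicates 1 and 2). Without 16-week CD replicate 9, which was its highest, the log2 fold change was 1.97 (adjusted p = 0.0317). Low weight gainers were narrow at 162, 133 and 139 CPM (log2 difference -0.54 against 16-week HFD, adjusted p = 0.534, and 0.51 against 16-week CD, adjusted p = 0.864, or 0.066, adjusted p = 0.981, without those replicates). Insig2 had an adjusted p of 0.0516 in 16 L, and without replicate 18 was called at a log2 fold change of -1.62 (adjusted p = 0.00722).

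Of the genes that free cholesterol in lysosomes and carry it between membranes, Stard4, a cytosolic sterol carrier and known SREBP target, was called. It ranged from 40.2 to 72.5 CPM in 16-week HFD with a median of 44.3, and was at 32.6, 30.2 and 23.7 CPM in low weight gainers, below every 16-week HFD library. This was a log2 fold change of -0.84 (SE 0.238, adjusted p = 0.0203). The call was lost without any 1 of the low weight gainers, at an adjusted p of up to 0.132, in scaling by total counts and in the fit of all 34 libraries. Lipa, the lysosomal acid lipase, was at 56.2, 40.7, 32.8, 44.9 and 19.6 CPM in 4-week CD and at 88.6, 90.6, 56.1, 55.9 and 61.8 CPM in 4-week HFD, where only 4-week CD replicate 11 reached the lowest HFD libraries. The log2 fold change of 0.85 (SE 0.268) had the smallest adjusted p of the list at 4 weeks, 0.0775, and 0.0264 without that replicate. Npc1 was called in no comparison with all libraries. Npc2 was called in 16 L in the fit of all 34 libraries and without replicate 18 (log2 fold change -0.83, adjusted p = 0.0243). Without replicate 18, its direction turned in scaling by total counts.

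Abca1, which pumps cholesterol out to apolipoproteins, lies at chr4:53030787-53159895 on the minus strand. In 16-week HFD it was narrow, from 105 to 153 CPM with a median of 137. Abca1 in low weight gainers was at 47.0, 62.5 and 59.1 CPM, all below that range. The fitted log2 fold change was -1.29 (SE 0.204, adjusted p = 0.0012), a 2.45-fold fall, and the call was lost only in the fit of all 34 libraries. Low weight gainers also lay below every 16-week CD library, which ranged from 73.6 to 242 CPM with a median of 153, though that difference of -1.53 on the log2 scale did not pass the test (SE 0.412, adjusted p = 0.257). It was -1.09 (adjusted p = 0.154) without 16-week CD replicates 1 and 2. In 16 C Abca1 was at 72.7, 70.9 and 74.4 CPM and in 16 L at 10.8, 136, 153, 57.8 and 169 CPM (log2 fold change 0.52, adjusted p = 0.628, and 0.74, adjusted p = 0.110, without replicate 18). At 4 weeks it was at 245, 348, 282, 113 and 78.1 CPM in CD and 156, 163, 124, 116.6 and 96.5 CPM in HFD (log2 fold change -0.71, adjusted p = 0.228).

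Nr1h2, the liver X receptor beta gene, was at 55.7, 59.2 and 148 CPM in low weight gainers. In 16-week HFD it ranged from 6.99 to 33.3 CPM with a median of 21.1, with no overlap. edgeR gave a log2 fold change of 2.09 (SE 0.337, adjusted p = 0.00131), a 4.26-fold rise. Without low weight gainer replicate 23, the library at 148 CPM, it was 1.47 (adjusted p = 0.0239), and the call stood in each of the 15 other fits tried. In 16-week CD it ranged from 8.54 to 67.3 CPM with a median of 38.7, which overlapped low weight gainers (log2 difference 1.04, adjusted p = 0.484, and 1.56, adjusted p = 0.217, without 16-week CD replicates 1 and 2). The change in its diet effect between 4 and 16 weeks was -1.6 on the log2 scale (SE 0.523, adjusted p = 0.0711), and -1.18 (adjusted p = 0.223) without those replicates. Of the 2 efflux pump genes, Abca1 was lower in the same libraries. Abcg1, at 77.8, 80.1 and 58.5 CPM in low weight gainers, lay within the 16-week HFD range of 37.0 to 229.9 CPM. Whether the receptor gene and the pump genes are linked here was not tested. Nr1h3, the liver X receptor alpha gene, was at 1.65, 0 and 1.30 CPM in low weight gainers and between 0 and 2.45 CPM in 16-week HFD. It failed the filter on low counts. An exact permutation test gave p = 0.692, where the smallest p possible is 0.00833. Between 16-week HFD and 16-week CD (0 to 9.35 CPM) the exact permutation test gave p = 0.262, where the smallest possible is 0.000583. A count of 0 allows Nr1h3 up to 2.75 CPM in the shallowest of these libraries. Against 16-week CD, low weight gainers had a log2 difference of -1.58 in Nr1h3 (adjusted p = 0.622), and without 16-week CD replicates 1 and 2 the gene failed the filter.

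Abcg1, which passes cholesterol to lipoprotein particles, ranged widely between libraries. In 16 C it was at 156, 587 and 137 CPM. In 16 L it was at 277 CPM in replicate 18 and at 7.69, 6.54, 1.38 and 14.2 CPM in the other libraries. The log2 fold change of -2.24 did not pass the test, and it was -5.37 (SE 0.712, adjusted p = 0.000434) without replicate 18. At 4 weeks all 10 libraries were between 0 and 10.0 CPM. In 16-week CD it ranged from 3.34 to 152 CPM with a median of 19.5, and in 16-week HFD from 37.0 to 229.9 CPM with a median of 110.3 (log2 fold change 1.45, adjusted p = 0.204, and 0.91, adjusted p = 0.702, without 16-week CD replicates 1 and 2). Without 16-week CD replicate 9 it was 2.63 (adjusted p = 0.0153).

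**Figure D4:**
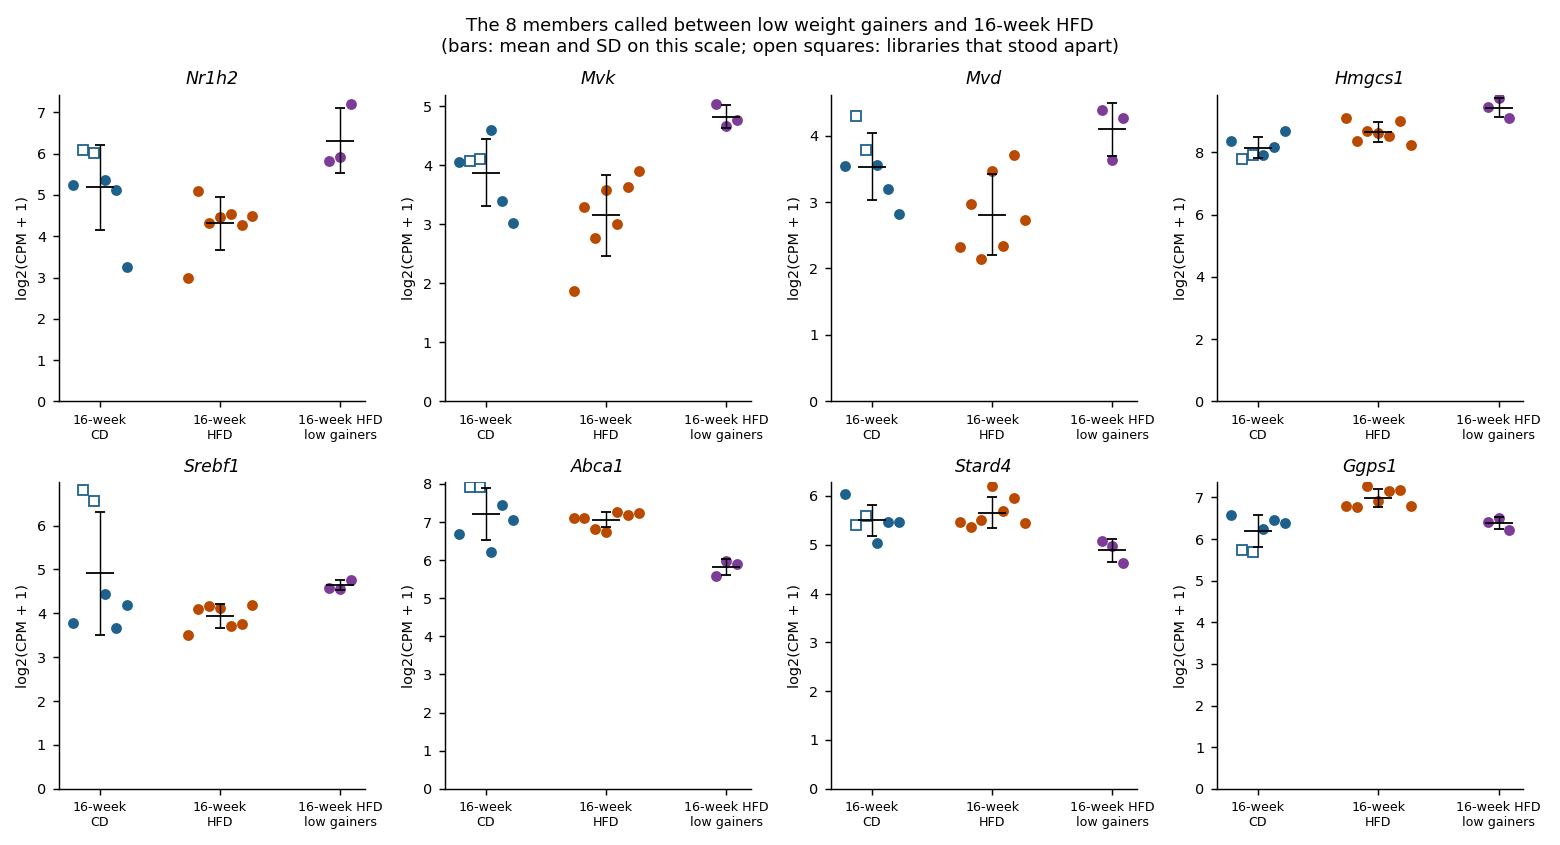
Level of the 8 called genes as log2(CPM + 1) in each library of the 3 groups on 16 weeks of diet, with the mean and SD on that scale. Open squares are 16-week CD replicates 1 and 2. Low weight gainers and 16-week HFD overlap in Mvd. The genes were picked by their call between these groups, where 20.7% of all genes were called, so little overlap is built in. The share of all genes without overlap was not counted.

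Soat1, which esterifies cholesterol in the endoplasmic reticulum, lies at chr1:156428108-156474328 on the minus strand. In 16 C it was at 3589, 3844 and 5506 CPM. In 16 L it was at 524, 932, 871, 587 and 1011 CPM, with no overlap. The log2 fold change was -2.46 (SE 0.445, adjusted p = 0.0187), a 5.52-fold fall, and -2.43 (adjusted p = 0.000349) without replicate 18. The call was lost without any 1 of the 16 C libraries and without 16 L replicate 20, 21 or 23, at an adjusted p of up to 0.108. The 4-week libraries lay near 16 L, at 612 to 1551 CPM in CD and 847 to 1278 CPM in HFD. In 16-week CD, replicates 1 and 2 were lowest in a range of 1197 to 4544 CPM with a median of 4060.2, and 16-week HFD ranged from 3326 to 6738 CPM. Low weight gainers were at 4428, 4495 and 6925 CPM.

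Marker genes of other states and cells moved with these comparisons. The 4 cumulus expansion markers summed to 1195 to 2192 CPM in 16 C and 2.22 to 640 CPM in 16 L (199.7 to 640 CPM without replicate 18). Tnfaip6 carried that difference, at 1088 to 2057 CPM in 16 C and 1.88 to 394 CPM in 16 L, while Ptgs2, Ptx3 and Has2 overlapped between the groups. The 4 luteinizing markers overlapped in sum, at 1832 to 2407 CPM in 16 C and 162 to 3255 CPM in 16 L, as did Cyp11a1, while Pgr was at 0 in every 16 C library and at 0 to 3.42 CPM in 16 L. Star and Lhcgr of that list were lower in each 16 L library, at 30.7 to 97.8 CPM against 177 to 260.4 CPM and at 2.02 to 8.99 CPM against 11.6 to 13.01 CPM. The 8 cumulus and granulosa markers overlapped in sum, at 740 to 1362 CPM in 16 C and 869 to 964 CPM in 16 L, as did the abundant Inha and Inhba. Foxl2 and Wt1 of that list were higher in each 16 L library. Foxl2 was at 7.17 to 27.5 CPM against 3.03 to 6.504 CPM. Wt1 was at 4.99 to 244 CPM (4.99 to 23.4 CPM without replicate 18) against 0 to 1.89 CPM. The 10 oocyte markers summed to 1.42 to 1.93 CPM in 16 C and 2.50 to 19.6 CPM in 16 L (2.50 to 11.0 CPM without replicate 18). The 7 oviduct epithelium markers summed to 199 to 227 CPM in 16 C and 129 to 36052 CPM in 16 L (129 to 1835 CPM without replicate 18), with Wfdc2 and Foxj1 at 0 in every 16 C library, and the 8 macrophage and neutrophil markers found in the table to 107 to 702 CPM and 68.5 to 1129 CPM. Every 16 L library except replicate 19 lay above 16 C in the oviduct sum. Low weight gainers had 4777 to 5515 CPM of 4 luteinizing markers, against 1615 to 2925 CPM in 16-week HFD, with Pgr at 0 in low weight gainers. Cyp11a1 carried that difference, at 4320 to 4978 CPM against 1178 to 2252 CPM, while Star and Lhcgr overlapped between the groups. Their macrophage and neutrophil markers, at 273 to 347 CPM, lay within the 16-week HFD range of 121 to 627 CPM. Of the neutrophil genes among them, S100a8 was at 42.8, 1.81 and 61.1 CPM in low weight gainers and 0 to 5.99 CPM in 16-week HFD, and S100a9 was at 14.17, 0 and 20.6 CPM and 0 to 0.487 CPM. Their part in the results was not tested. In such samples, fewer cells of a type and less RNA per cell cannot be told apart.

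Across the 32 genes, the mean of log2(CPM + 1) minus each gene's mean over all libraries was 0.21 ± 0.084 (SD, n = 3) in 16 C and -0.46 ± 0.3 (SD, n = 5) in 16 L, or -0.35 ± 0.21 (n = 4) without replicate 18. Every 16 L library (highest -0.062) lay below every 16 C library (lowest 0.11) with TMM. With CPM of the library total the order turned and the groups overlapped, at -0.31 ± 0.029 (n = 3) in 16 C and -0.22 ± 0.49 (n = 5) in 16 L, or -0.011 ± 0.17 (n = 4) without replicate 18, where every 16 L library (lowest -0.22) lay above every 16 C library (highest -0.28). The median log2 fold change of the genes was -0.19 in 16 L against 16 C (all genes 0.27), or -0.18 (all genes 0.10) without replicate 18. With total counts it was 0.64 (all genes 1.08), or 0.79 (all genes 1.09) without replicate 18. With TMM it was 0.22 in 4-week HFD against CD (all genes -0.01), 0.11 in 16-week HFD against CD (all genes -0.05, and -0.26 against -0.40 with total counts), or 0.17 (all genes 0.01) without 16-week CD replicates 1 and 2, and 0.04 in low weight gainers against 16-week HFD (all genes -0.03). The 18 synthesis enzymes, averaged in the same way, were at 0.15 ± 0.0039 (SD, n = 3) in 16 C and -0.54 ± 0.35 (SD, n = 5) in 16 L, or -0.45 ± 0.31 (n = 4) without replicate 18. With CPM of the library total they were at -0.37 ± 0.095 in 16 C and -0.31 ± 0.52 in 16 L, or -0.10 ± 0.29 (n = 4) without replicate 18. With TMM they were at -0.34 ± 0.22 (n = 5) in 4-week CD, -0.15 ± 0.12 (n = 5) in 4-week HFD, 0.13 ± 0.22 (n = 6) in 16-week CD (0.21 ± 0.24, n = 4, without replicates 1 and 2), 0.3 ± 0.27 (n = 7) in 16-week HFD and 0.62 ± 0.084 (n = 3) in low weight gainers. With CPM of the library total the order of the 16-week diets turned, at 0.17 ± 0.32 in CD (0.055 ± 0.35 without replicates 1 and 2) and 0.018 ± 0.33 in HFD. On that scale the 4-week groups were at -0.024 ± 0.2 in CD and 0.049 ± 0.15 in HFD, so 4-week HFD lay above 16-week HFD. Low weight gainers were at 0.46 ± 0.18.

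**Figure D5:**
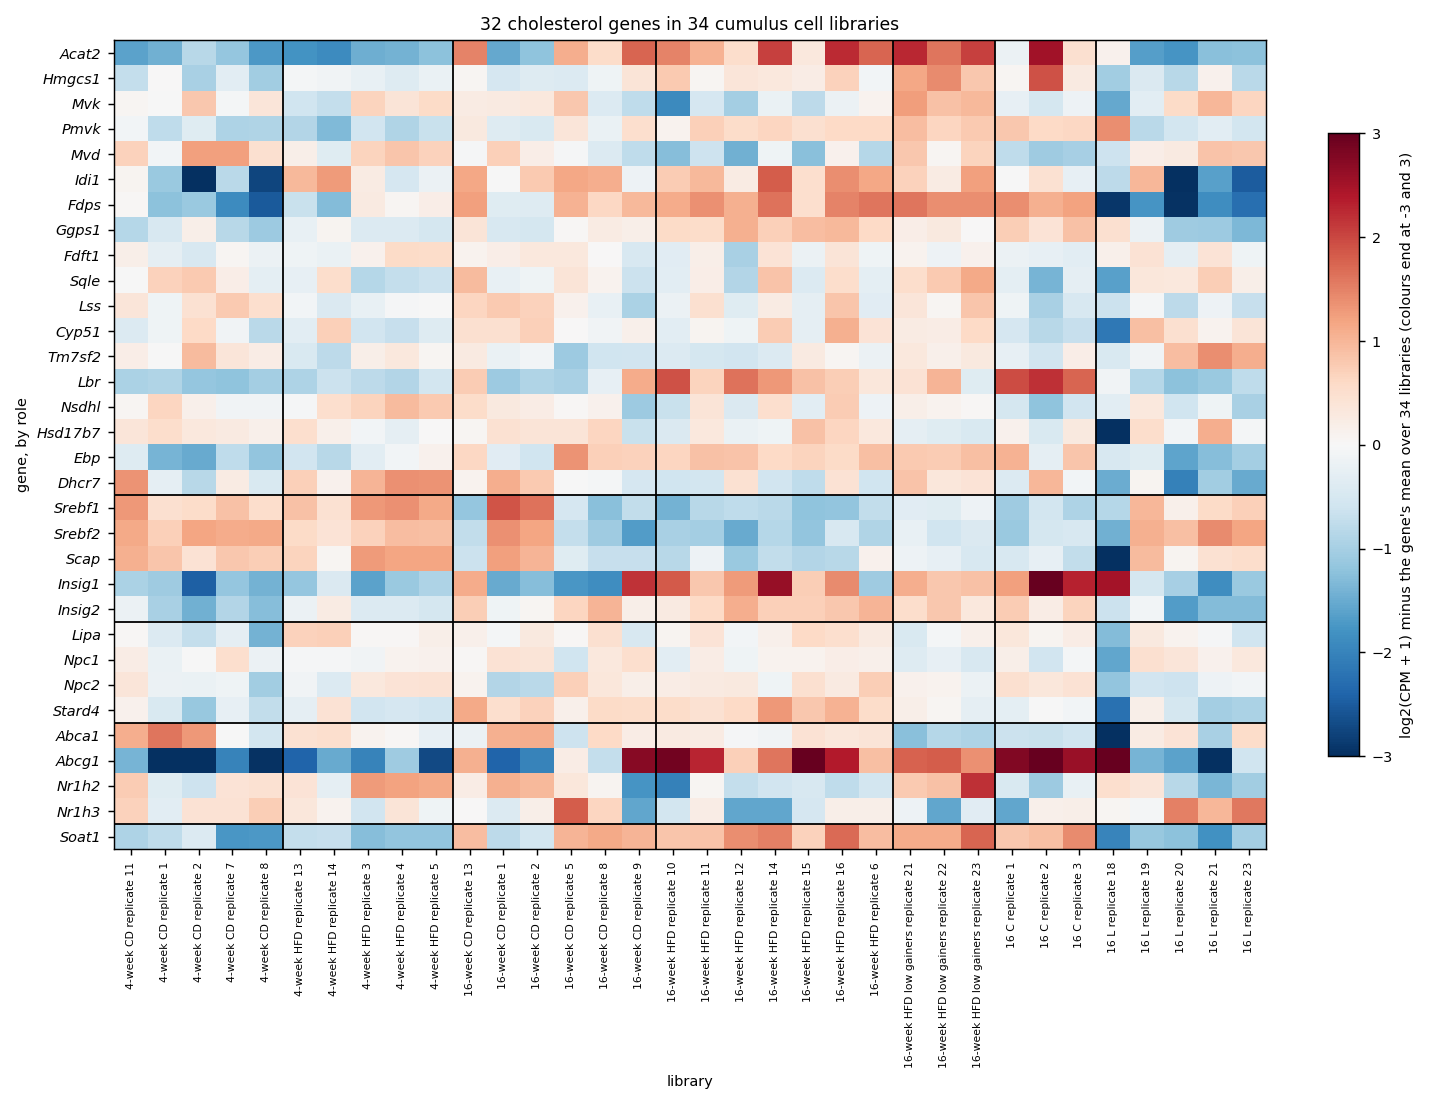
Level of the 32 genes (rows, by role) in the 34 libraries (columns, by group), as log2(CPM + 1) minus the gene's mean over all libraries, with colours ending at -3 and 3. Srebf1 and Srebf2 are high, and Abcg1 low, in 4-week libraries, in 16-week CD replicates 1 and 2 and in 16 L other than replicate 18. Soat1 is low in the same libraries and also in replicate 18.

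Within groups, the genes did not vary as 1 block. After group means were removed, the median correlation over the 496 pairs was 0.11 across 34 libraries. Genes read in the same library share its depth and composition, which differed between libraries. With the mean of the other synthesis enzymes, Fdps correlated most (r = 0.64, rho = 0.75), then Fdft1 (r = 0.57, rho = 0.64) and Nsdhl (r = 0.55, rho = 0.53), while Lbr ran the other way (r = -0.25, rho = -0.22). Over the 31 libraries without those that stood apart, the order was Fdft1 (r = 0.72, rho = 0.76), Nsdhl (r = 0.69, rho = 0.65) and Fdps (r = 0.62, rho = 0.72), and Lbr was at r = -0.28 and rho = -0.18. The closest pairs were Srebf2 with Scap (r = 0.85, rho = 0.73) and Srebf1 with Srebf2 (r = 0.83, rho = 0.70). Over the 31 libraries these pairs were at r = 0.30 (rho = 0.24) and r = 0.17 (rho = 0.25). In the same 31 libraries, Srebf2 correlated with the mean of the synthesis enzymes at r = 0.62 and rho = 0.64, against r = 0.27 and rho = 0.28 with all.

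A longer list of 62 other genes of the pathway, of which 61 are in the table, was counted in the same way. In 16 L, 3 rose and 4 fell of 56 tested (12.5%, against 8.56% of all genes), and without replicate 18 the counts were 13 and 13 (46.4%, against 41.8% of all genes). The genes that rose included Stard3, a late endosomal sterol carrier (log2 fold change 2.18, adjusted p = 0.0187), and Lipe, the hormone-sensitive lipase that also cleaves cholesterol esters (2.54, adjusted p = 0.0309). Those that fell included Tmem97, a regulator of the lysosomal carrier Npc1 (-2.23, adjusted p = 0.0146), and Star, which delivers cholesterol to mitochondria for steroid synthesis (-1.58, adjusted p = 0.0394). In low weight gainers against 16-week HFD, 12 rose and 2 fell of 55 tested (25.5%, against 20.7% of all genes), with Lipe at 2.26 (adjusted p = 0.00189) and the lipoprotein receptor gene Lrp1 at 1.71 (adjusted p = 0.000375). In 4-week HFD, 0 rose and 3 fell of 56 (5.36%, against 4.26% of all genes). In 16-week HFD 0 of 55 were called (0.0276% of all genes), and in low weight gainers against 16-week CD 0 of 56 (0.00861% of all genes). For the change in diet effect 2 were higher and 1 lower of 56 (5.36%, against 3.66% of all genes), and without 16-week CD replicates 1 and 2 none was (0.725% of all genes).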

How the data were processed

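CC libraries were made by the authors with the Smart-seq2 method, which primes polyadenylated RNA, amplifies cDNA by PCR, marks no strand and adds no molecular identifiers. Per the submitters' processing notes, Trim Galore 0.4.2, HISAT2 2.0.5 and GRCm38 were used. The counting program is not given in the sources used here. The authors deposited whole-number read counts per gene, without normalization, for 34 libraries, 1 per mouse, with 1104611 to 13207018 counts each.

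The genes and lists were chosen with earlier results of these data known. Groups came from the sample labels. Tests used edgeR 4.0.16 in R 4.3.3 (filterByExpr, TMM, robust quasi-likelihood F-test, two-sided) on the libraries of the groups compared, with Benjamini-Hochberg adjustment over all genes and a threshold of 0.05. Levels are CPM of the library total times its TMM factor, and a pseudocount of 1 was used on the log2 scale. A count of 0 was given a limit of 3 counts at 95% confidence, which covers counting error only. Named genes were those past the threshold, the 3 largest changes per comparison, and Srebf2, Insig1, Hmgcs1, Sqle and Abca1. Genes named only for calls in other fits were added after their values were seen. Nr1h3, where it failed the filter, had an exact permutation test. Motifs were searched with Python 3.11.15. Alternatives were RLE, total-count scaling, no filter, DESeq2 1.42.0, all 34 libraries in one fit, a replicate block and leaving out each library. Leaving out 16-week CD replicates 1 and 2 together, means and correlations without these and 16 L replicate 18, and means without TMM factors, were added after seeing the data. On simulated data, 200 genes were changed by 3 on the log2 scale. edgeR recovered 59% of these in 16 L (11723 genes) and 99.5% at 4 weeks (11727). Recovery was 100% at 16 weeks (10861) and 95.5% in low weight gainers (11258). Of the genes called, 3.28%, 3.4%, 6.1% and 4.98% were not among the 200. The simulation set no library apart from its group. The largest diet changes of the list were smaller, at 1.74 at 4 weeks and -1.68 at 16 weeks. Recovery of changes of that size was not tested.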

Additional observations from a re-analysis of the deposited data

Results flagged for a closer look

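Among 18 genes in 90 groups of 4 to 10 libraries, 6 groups held a library whose gap to its neighbour passed Dixon's critical value, where chance gives about 1 in 20. In 16 L, replicate 18 stood high for Insig1 at 433 CPM (next 51.7 CPM) and for Abcg1 at 277 CPM (next 14.2 CPM). Replicate 19 of 16 L stood high for Idi1 at 17.8 CPM (next 4.44 CPM). In 16-week CD, replicate 9 stood high for Abcg1 at 152 CPM (next 47.2 CPM). In 4-week HFD, replicate 14 stood high for Stard4 at 39.0 CPM (next 23.8 CPM). In 4-week CD, replicate 1 stood low for Srebf2 at 56.0 CPM (next 74.9 CPM).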

How the results depend on the processing

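In 16 L against 16 C, the number of called genes was 5 with RLE (8.62% of all genes), 9 with total counts (34.4%), 7 with DESeq2 (18.9%), 12 when the 34 libraries were fitted together (33.1%) and 2 to 18 when a library was left out, and the median log2 fold change was 0.64 with total counts and -0.48 to -0.10 when a library was left out. At 4 weeks the number was 2 with DESeq2 (9.69% of all genes) and 0 to 6 when a library was left out. At 16 weeks it was 3 with total counts (15.2%), 3 with DESeq2 (9.05%), 4 with all 34 libraries (9.5%) and 0 to 8 when a library was left out, with a median of -0.26 with total counts. In low weight gainers against 16-week HFD it was 3 with all 34 libraries (3.68%) and 3 to 10 when a library was left out. Against 16-week CD it was 2 with DESeq2 (1.83%), with a median of -0.11 with total counts. For the change in diet effect it was 1 with total counts (7.14%), 2 with DESeq2 (9.12%) and 0 to 3 when a library was left out, with a median of -0.27 with total counts. With the replicate block, that comparison gave 0 called genes of the list and called 0.0817% of all genes, against 3.66% without it. The replicate numbers name different mice, so the libraries share only a number. Sqle at 16 weeks ranged from -0.29 to 0.12 when a library was left out, its direction reversing without 16-week CD replicate 13 (0.12) or 16-week HFD replicate 12 (0.0019). Directions also reversed without 16-week CD replicates 1 and 2 for Srebf2 (0.11 at 16 weeks, 0.63 in low weight gainers against 16-week CD, 0.45 for the change in diet effect) and Abca1 (0.21 at 16 weeks). Hmgcs1 reversed to -0.066 for the change in diet effect with total counts. The cause was not tested. Of 11 calls, 4 held in every setting. The lowest totals limit genes of few reads such as Nr1h3.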
